A study of Mus musculus with 6 samples.

Results

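The genes described here encode the chromatin silencing machinery, that is, proteins that write, read or remove DNA methylation, the Polycomb proteins, and proteins that lay down or bind methylation of histone H3 at lysine 9 (H3K9). They were chosen by name and not by their values: 40 gene symbols were looked up in a table of 24207 entries, and each was found in exactly 1 entry. Of these, 12 are DNA methylation factors, 14 are Polycomb factors, 10 are H3K9 methylation factors, and the remaining 4 are *Atrx*, *Daxx*, *Hells* and *Morc3*. RNA from 6 whole male mouse embryos at embryonic day 9.5 (E9.5) had been sequenced, from 3 Smchd1+/+ (wildtype) and 3 Smchd1MommeD1/MommeD1 (mutant) embryos. MommeD1 is a chemically induced mutant allele of *Smchd1*, the embryos of both genotypes came from matings of heterozygous parents, and the genotype of each was read from its yolk sac. The labels give the strain background of both groups as C57Bl6/J x FVB/n, whereas the study's text describes a backcross to 129 T2/SvEms for these embryos. The authors' table gives 1 value per genotype and entry, pooled over the embryos of that genotype, in FPKM (fragments scaled to transcript length and to all mapped fragments). No spread between embryos, and therefore no test between the genotypes, could be given for any gene, and the sequencing depth is unknown.

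DNA methylation is copied after replication by Dnmt1, which Uhrf1 brings to newly made DNA, and is set up on unmethylated DNA by Dnmt3a and Dnmt3b. Tet enzymes oxidise it, and Mbd proteins are named for a domain that binds it. Polycomb proteins act in PRC2, which methylates histone H3 at lysine 27 through Ezh1 or Ezh2, and in PRC1, which ubiquitinates histone H2A through Ring1 or Rnf2. H3K9 methylation is laid down by SET domain enzymes such as Suv39h1, Ehmt2 and Setdb1 and is bound by the heterochromatin (HP1) proteins, encoded by *Cbx1*, *Cbx3* and *Cbx5*. Smchd1, a protein related to the SMC proteins that shape chromosomes, takes part in the silencing of the inactive X chromosome and of some imprinted genes, so the question addressed here was whether transcripts of the other silencing factors differed in its absence.

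*Smchd1* transcripts themselves were at 2.12 FPKM in mutant against 34.0 FPKM in wildtype embryos. The 4 Y-linked genes examined were present in both pools, from 5.17 to 21.1 FPKM, and *Xist* was listed below 0.01 FPKM in both, as in male tissue. Markers of heart (10 genes) and of neural progenitors (10 genes) were above 3 FPKM in both genotypes.

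The transcript levels of the silencing genes were close to the same in both genotypes. Differences are given as log2 ratios of mutant over wildtype after 0.1 FPKM was added to each value, and counts cover entries with a mean of at least 1 FPKM, which 38 of the 40 genes passed. None of the 38 differed by 1.5-fold, 0 higher and 0 lower, beside 4.98% of all 12463 entries with such a mean (3.51% higher in mutant embryos and 1.47% lower). The background is lower among abundant entries, with 1.8% of the 6649 entries of at least 10 FPKM past 1.5-fold, and 30 of the silencing genes are of that kind. At such shares few of 38 genes would be past 1.5-fold, so a count of 0 does not set these genes apart. Past the smaller limit of 0.32 on the log2 scale, 0 were higher and 2 were lower, *Dnmt3b* and *Tet1*, against 8.84% and 4.98% of all entries, so that the share of genes that were lower was close to the background. The ratio of *Tet1* ran from -0.35 to -0.28 over the scalings and pseudocounts, and was within this limit when the sums of FPKM were made equal or 1 FPKM was added. The median log2 ratio of the 38 genes was -0.00045, beside -0.0076 for all entries, and the median size of the ratio, regardless of sign, was 0.084 beside 0.115. Of the 38, 22 lay within the interquartile range of all entries (-0.12 to 0.11) and 36 within the central 90% (-0.32 to 0.47). *Dnmt3b* and *Tet1* were the 2 outside it. The sign of the log2 ratio changed with the scaling between the genotypes for *Dnmt1*, *Uhrf2*, *Mbd1*, *Trim28*, *Suv39h1* and *Cbx1*. Their log2 ratios were at most 0.042 in size. Under each of 3 other scalings, 18 of the 38 stayed higher and 14 stayed lower. These scalings add 0.043, -0.016 or 0.0076 to every log2 ratio, so a larger ratio must keep its sign. With no spread between embryos, the direction is settled for none of the 38. Of the 38, 19 were higher and 19 lower with the values as deposited, and 24 were higher and 14 lower when the sums of FPKM were made equal. Exons of *Eed*, *Ehmt1*, *Ezh2*, *Setdb1*, *Suv39h1*, *Suv39h2* and *Suz12* overlap those of another gene by 21 to 429 bases, and the part of those genes in the values was not tested.

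**Figure D1:**
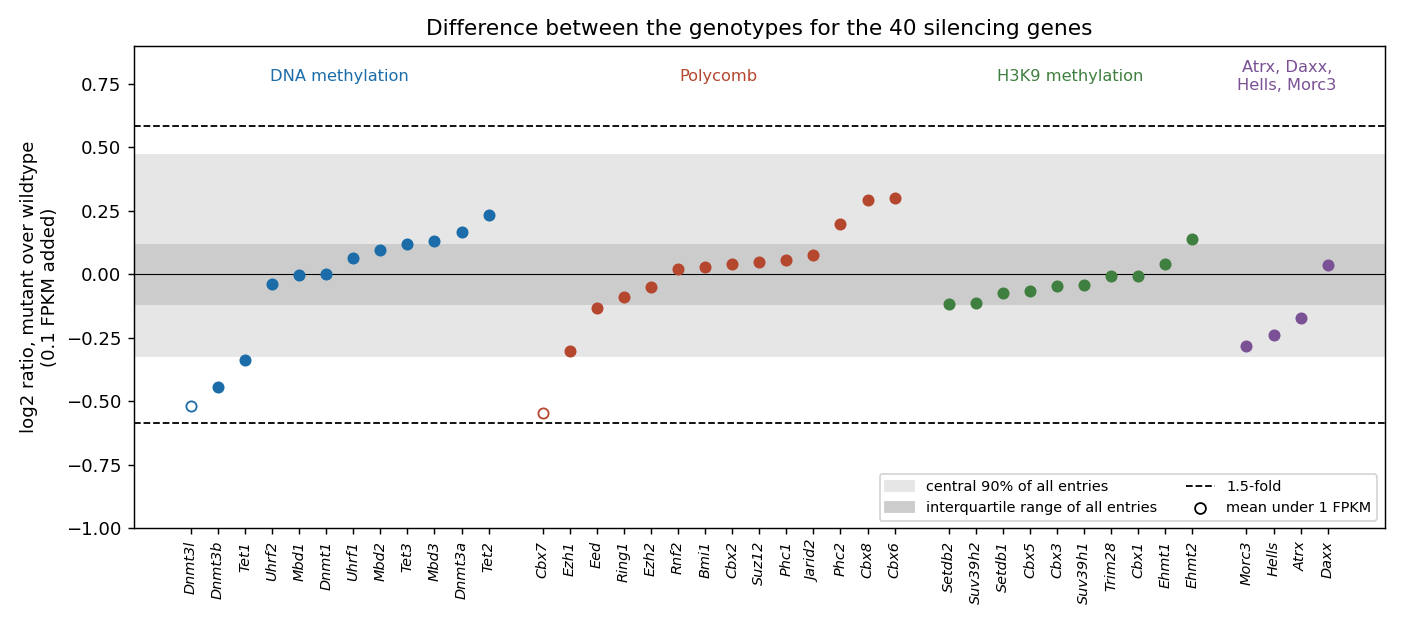
Log2 ratio of mutant over wildtype FPKM (0.1 FPKM added) for each of the 40 silencing genes, ordered within the 4 classes, with the interquartile range (dark) and the central 90% (light) of all entries as grey bands and 1.5-fold as dashed lines. All 38 filled points lie between the dashed lines, and open points mark the 2 genes with a mean under 1 FPKM.

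Silencing genes were abundant in the E9.5 embryo. FPKM is scaled to transcript length, so that levels of different genes can be set side by side. The median of their mean FPKM was 28.2, beside 11.3 for all entries past the filter, and 29 of the 38 genes lay above the latter value. The highest was *Trim28*, which encodes a corepressor recruited by KRAB zinc finger proteins, at 424 FPKM in mutant against 427 FPKM in wildtype embryos. It was followed by *Cbx3*, *Cbx1*, *Uhrf1*, *Cbx5* and *Mbd3*, in that order in both genotypes. These 6 genes were the ones with a mean of at least 100 FPKM, which makes 15.8% of the 38 genes beside 7.49% of all entries past the filter. The order of the levels was nearly the same in both genotypes, since 21 of 38 genes kept their rank and none moved by more than 2 places. Without values per embryo it cannot be said which neighbours in this order differ beyond their spread.

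**Figure D2:**
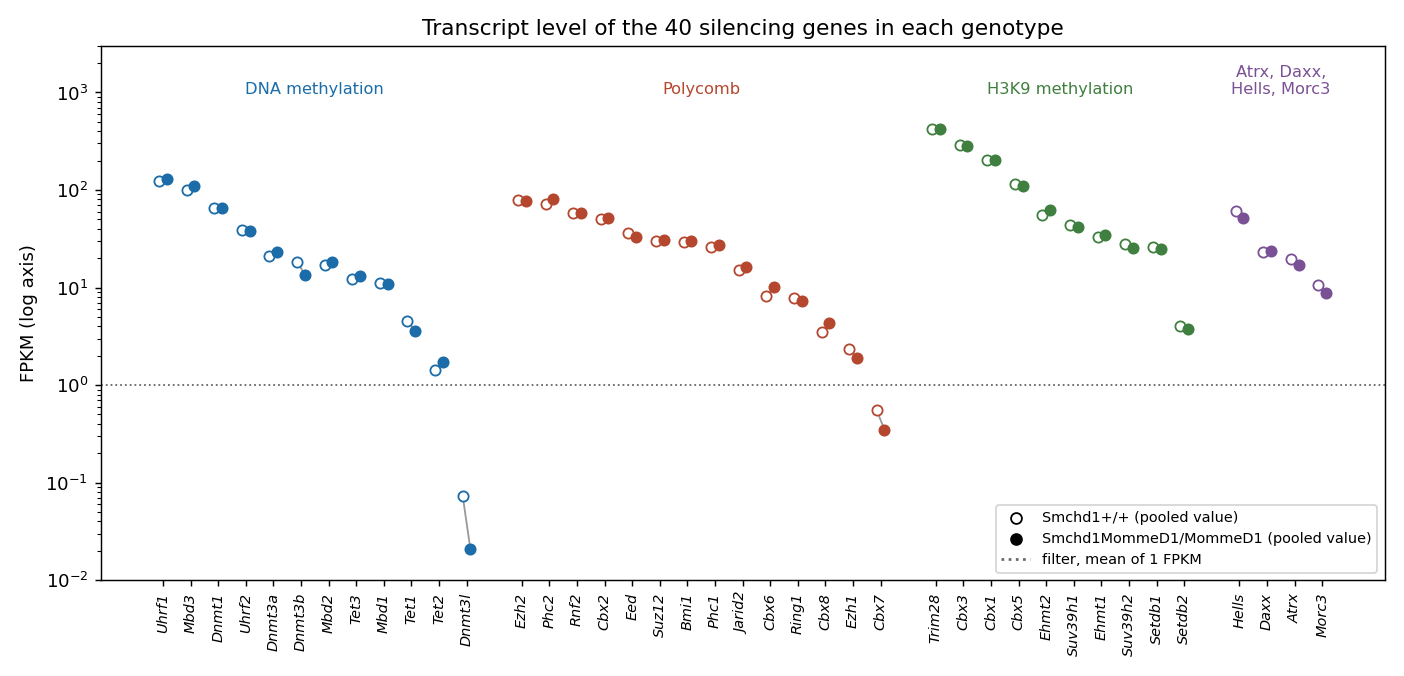
FPKM on a log axis for the 40 silencing genes, with an open point for the wildtype and a filled point for the mutant pooled value of each gene. Levels run from *Trim28* at 427 FPKM in wildtype embryos down to *Dnmt3l* below 0.1 FPKM, and the points of each pair lie close together except at the lowest levels.

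Among DNA methylation factors, the maintenance enzyme gene *Dnmt1* was at 65.8 FPKM in mutant against 65.7 FPKM in wildtype embryos, a log2 ratio of 0.00. The transcripts of the de novo enzymes went in opposite directions. *Dnmt3a* was at 23.4 FPKM in mutant against 20.8 FPKM in wildtype embryos, a log2 ratio of 0.17. *Dnmt3b* was at 13.5 and 18.5 FPKM, a log2 ratio of -0.44, the most negative of the 38 genes. Across all alternative scalings and pseudocounts the ratio of *Dnmt3b* stayed between -0.46 and -0.40, and 92.0% of all entries past the filter had a ratio of the same size or smaller. As a share of the summed FPKM of *Dnmt3a* and *Dnmt3b*, *Dnmt3b* made up 47.0% in wildtype and 36.7% in mutant embryos, and the sum itself was 39.3 and 36.9 FPKM. *Dnmt3b* is known from early, undifferentiated embryonic cells, and markers of the tail bud, where the youngest cells of an E9.5 embryo lie, were also lower in these mutant embryos. Of 14 tail bud genes, 12 were lower and 2 higher, with a summed level of 65.2 FPKM in mutant against 104 FPKM in wildtype embryos, and none of them was at 0. Other marker lists went either way. Of 10 neural progenitor genes, 9 were higher and 1 lower, and of 10 heart genes, 2 were higher and 8 lower. The part of tail bud cells, or of any other cell type, in the *Dnmt3b* value was not tested. In whole embryos, fewer cells of a type and less RNA per cell cannot be told apart.

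*Dnmt3l*, a cofactor of the de novo enzymes without activity of its own that is known from germ cells, was at 0.021 FPKM in mutant against 0.073 FPKM in wildtype embryos, far below the filter, and no difference is read from it. *Uhrf1*, which recruits Dnmt1, was at 129 and 123 FPKM, and its relative *Uhrf2* at 38.2 and 39.1 FPKM. Their log2 ratios were 0.07 and -0.04. Both are thus present in both genotypes at levels that differed little.

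The *Tet* genes were of low to moderate level. *Tet3* was the most abundant, at 13.1 FPKM in mutant against 12.1 FPKM in wildtype embryos (log2 ratio 0.12). *Tet1* was at 3.58 and 4.55 FPKM (log2 ratio -0.34), and *Tet2* at 1.71 and 1.44 FPKM (log2 ratio 0.23). *Tet3* therefore made up 66.9% of the *Tet* total in wildtype and 71.3% in mutant embryos, and *Tet1* 25.1% and 19.4%. The authors' program marked the entries of *Tet1* and *Tet3* as failed in its comparison, as it did those of *Phc1*, *Ehmt1* and *Atrx*, although it gave a value for each. Such marks were rare, at 134 of 24207 entries, and without those 5 genes the median log2 ratio of the rest was -0.0018.

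The *Mbd* genes of this class, *Mbd1*, *Mbd2* and *Mbd3*, all had log2 ratios of at most 0.13 in size. *Mbd3*, a subunit of the NuRD repressor complex, was at 109 FPKM in mutant against 100.1 FPKM in wildtype embryos, *Mbd2* at 18.4 and 17.2 FPKM, and *Mbd1* at 11.0 FPKM in both. Over the 11 DNA methylation factors past the filter the median log2 ratio was 0.065, with 7 higher and 4 lower. With the sums of FPKM made equal, 9 were higher and 2 lower. When only named entries of 200 bp or more entered those sums, 6 were higher and 5 lower. Over entries that share their locus with no other entry or symbol, the median was 0.00094. *Dnmt3a* and *Tet3*, both higher in mutant embryos, are not among those entries.

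Among PRC2 genes, the catalytic subunit *Ezh2* was at 77.0 FPKM in mutant against 79.6 FPKM in wildtype embryos (log2 ratio -0.05), and was 33.8-fold as abundant as *Ezh1* in wildtype and 40.7-fold in mutant embryos. *Ezh1*, the catalytic subunit that is better known from non-dividing cells, was at 1.89 and 2.36 FPKM (log2 ratio -0.30). *Eed*, which binds the methylated lysine, was at 33.0 and 36.2 FPKM (log2 ratio -0.13), and the core subunit *Suz12* at 31.1 and 30.1 FPKM (log2 ratio 0.05). *Jarid2*, an accessory subunit, was at 16.1 and 15.3 FPKM (log2 ratio 0.08). No PRC2 gene differed by more than 0.31 on the log2 scale.

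Among PRC1 genes, the ubiquitin ligase gene *Rnf2* was at 58.3 FPKM in mutant against 57.4 FPKM in wildtype embryos. Its relative *Ring1* was at 7.31 and 7.79 FPKM, so that *Rnf2* accounted for 88.9% of their total in mutant and 88.1% in wildtype embryos. *Bmi1*, a partner of these ligases, was at 30.0 and 29.4 FPKM. The polyhomeotic gene *Phc2* was at 81.7 and 71.2 FPKM (log2 ratio 0.20), whereas *Phc1* was at 27.3 and 26.2 FPKM (log2 ratio 0.06). Of the Polycomb chromodomain genes described here, which bind methylated lysine 27, *Cbx2* was the most abundant, at 51.3 FPKM in mutant against 49.9 FPKM in wildtype embryos (log2 ratio 0.04). *Cbx8* was at 4.29 and 3.48 FPKM (log2 ratio 0.29), and *Cbx7* was below the filter at 0.347 and 0.553 FPKM.

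*Cbx6* had the most positive log2 ratio of the 38 genes, 0.30, at 10.02 FPKM in mutant against 8.11 FPKM in wildtype embryos. Its entry is shared with *Npcd* and *Nptxr*, so the value is that of all 3 genes together. *Nptxr* encodes a neuronal pentraxin receptor, and all 16 neuron markers past the filter were higher in mutant embryos, with a summed level over the list of 271 FPKM against 126 FPKM. The part of *Nptxr* or of neurons in the *Cbx6* value was not tested. Over the 13 Polycomb factors past the filter the median log2 ratio was 0.041, with 9 higher and 4 lower under each scaling tried.

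Of the 3 larger classes, the H3K9 methylation factors had the narrowest range of differences. Their log2 ratios ran from -0.12 to 0.14, and 7 of 10 were within 0.1 of 0, a share of 70% beside 44.6% of all entries past the filter. These shares are not matched for level, since the median of the mean FPKM was 50.8 for the H3K9 factors and 11.3 for all entries. The share was 70.6% for 34 DNA replication genes, with a median of 59.8 FPKM, and 38.1% for 21 other H3K9 genes, with a median of 18.6 FPKM. *Ehmt2*, which encodes the enzyme G9a, was the highest of the enzymes, at 61.7 FPKM in mutant against 56.0 FPKM in wildtype embryos (log2 ratio 0.14). Its partner *Ehmt1* was at 34.2 and 33.2 FPKM (log2 ratio 0.04). *Suv39h1* was at 42.1 and 43.3 FPKM (log2 ratio -0.04), and *Suv39h2* at 25.5 and 27.6 FPKM (log2 ratio -0.11). *Setdb1*, which acts with Trim28, was at 25.1 and 26.4 FPKM (log2 ratio -0.07), and *Setdb2*, in an entry shared with *Gm6907*, at 3.74 and 4.06 FPKM (log2 ratio -0.12). Added together, these 6 enzyme genes came to 192 FPKM in the mutant pool and 191 FPKM in the wildtype pool.

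The HP1 genes, readers of this mark, were high and nearly equal between the genotypes. *Cbx3* was at 283 FPKM in mutant against 292 FPKM in wildtype embryos, *Cbx1* at 201 and 202 FPKM, and *Cbx5* at 111 and 116 FPKM. Their log2 ratios were -0.05, -0.01 and -0.07, and *Cbx3* held 47.6% and 47.9% of their sum. GENCODE M21 lists 8 pseudogenes named after *Cbx3*, so its reads may be hard to assign. Over the 10 H3K9 factors the median log2 ratio was -0.044, with 2 higher and 8 lower, although 5 were higher and 5 lower when the sums of FPKM were made equal.

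Of the other 4 genes, 3 had negative ratios under each scaling tried. *Hells*, which encodes a chromatin remodeller needed for DNA methylation, was at 52.0 FPKM in mutant against 61.4 FPKM in wildtype embryos (log2 ratio -0.24). *Morc3*, a nuclear ATPase of the MORC family, was at 8.77 and 10.7 FPKM (log2 ratio -0.28). *Atrx*, a remodeller that deposits histone H3.3 together with Daxx, was at 17.2 and 19.4 FPKM (log2 ratio -0.17), whereas *Daxx* was at 23.6 and 23.0 FPKM (log2 ratio 0.04). None of the 4 was past 0.32 in size. *Atrx* and *Suv39h1* are X-linked, and the median log2 ratio over the 438 X-linked entries past the filter was -0.067. *Daxx*, *Ehmt2*, *Ring1* and *Uhrf1* lie on chromosome 17, as does *Smchd1*, and their log2 ratios of -0.09 to 0.14 stood beside a median of -0.0045 over 595 entries of that chromosome.

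The medians of the 3 larger classes lay within 0.11 of each other on the log2 scale, and that of *Atrx*, *Daxx*, *Hells* and *Morc3* was lower, at -0.21. The median log2 ratio of Polycomb factors was below that of DNA methylation factors by 0.024, and above that of H3K9 factors by 0.086. The H3K9 median was lower than the DNA methylation median by 0.109, values that no scaling between the genotypes changes. Over entries alone in their locus the differences were 0.029 for Polycomb minus DNA methylation, which turns its sign, 0.037 for Polycomb minus H3K9, and -0.0080 for H3K9 minus DNA methylation.

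The balance between related genes is likewise independent of scaling. In 12 of 12 pairs the same gene was the more abundant in both genotypes, and in 7 the log2 ratio of the pair moved by at most 0.25. The pair of *Dnmt3a* and *Dnmt3b* moved by 0.61, from 0.17 in wildtype to 0.78 in mutant embryos, that is, from 1.13-fold to 1.73-fold more *Dnmt3a*. *Tet3* was 2.66-fold as abundant as *Tet1* in wildtype and 3.68-fold in mutant embryos. The pair of *Cbx2* and *Cbx7* also moved, by 0.59, but this value rests on the low level of *Cbx7* and was 0.25 with 1 FPKM added and 0.70 with 0.01 FPKM added, so that which of these pairs moved more depends on the pseudocount. The pairs of *Uhrf1* and *Uhrf2*, *Suv39h1* and *Suv39h2*, *Ehmt1* and *Ehmt2*, *Setdb1* and *Setdb2*, and *Cbx1* and *Cbx5* each moved by at most 0.10.

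**Figure D3:**
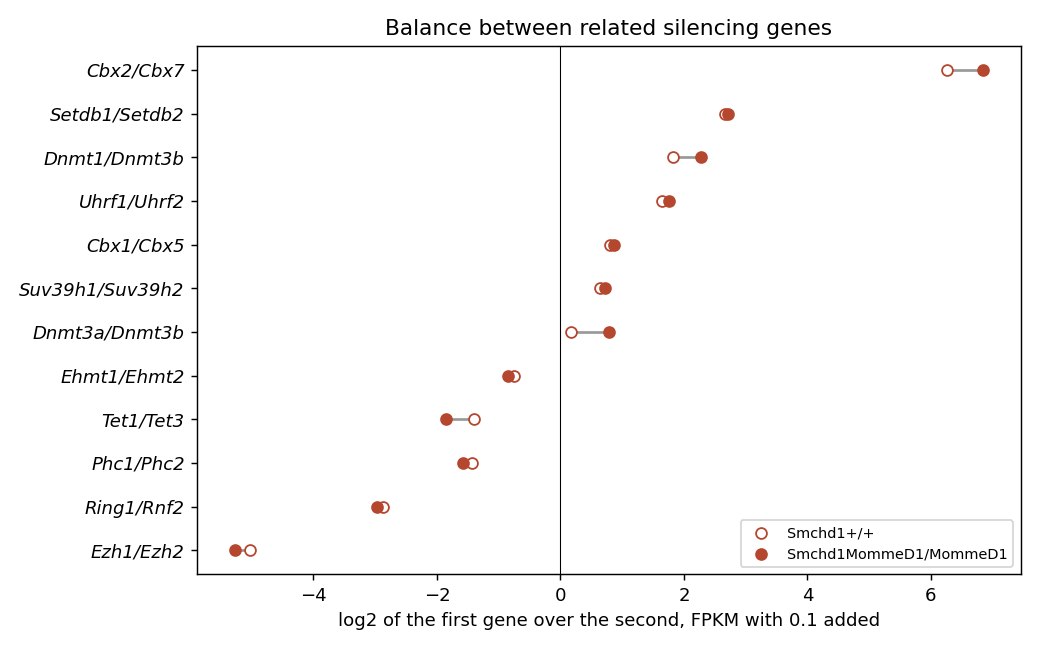
Log2 of the FPKM of the first gene over the second in 12 pairs of related silencing genes, with open points for wildtype and filled points for mutant embryos. No pair crosses 0, and the longest lines are those of *Dnmt3a*/*Dnmt3b*, *Cbx2*/*Cbx7*, *Tet1*/*Tet3* and *Dnmt1*/*Dnmt3b*.

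Beyond the 40 genes, other silencing genes were examined in the same way. Of 99 further symbols, covering other DNA methylation, Polycomb, H3K9 and repressor complex genes, 98 had an entry and 92 passed the filter, with a median log2 ratio of -0.017. The one past 1.5-fold was *Prdm16*, a SET domain gene of the H3K9 list, at 2.18 FPKM in mutant against 1.05 FPKM in wildtype embryos (log2 ratio 0.98). The medians of the lists were 0.071 for 16 DNA methylation genes, -0.084 for 27 Polycomb genes, -0.018 for 21 H3K9 genes and -0.0022 for 28 genes of a list of deacetylase and NuRD subunits, chromatin remodellers, *Morc* genes, histone chaperones and H3.3 histones. The other Polycomb genes were 9 higher and 18 lower, with 29.6% within 0.1 of 0, whereas the 13 Polycomb factors above were 9 higher and 4 lower, with 61.5% within 0.1 of 0. The lowest ratios, chosen after the values were seen, were those of *Pcgf5* (log2 ratio -0.50, at 4.95 and 7.04 FPKM), a PRC1 subunit, of *Morc4* (log2 ratio -0.48, at 3.64 and 5.12 FPKM), a relative of *Morc3*, and of *Wiz* (log2 ratio -0.48, at 43.4 and 60.5 FPKM), a zinc finger partner of Ehmt1 and Ehmt2. Since several silencing factors are most abundant in dividing cells, DNA replication genes were set beside them. All 34 lay between -0.20 and 0.13, with a median of -0.040 and 0 past the limit of 0.32.

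Several lists of markers of single cell types differed between the same pools. These lists were chosen with earlier results of these data known, so they are no independent contrast. Of the neuron markers above, 14 of 16 were past 1.5-fold, and the median log2 ratio of the tail bud markers was -1.09. The 13 entries of erythroid genes had a median of 0.97, with a summed level of 16264 FPKM in mutant against 7692 FPKM in wildtype embryos. Of 7 visceral endoderm entries past the filter, 3 were higher and 4 lower (median -0.29). The 5 under it, *Apob*, *Apoa4*, *Apoc2*, *Cubn* and *Amn*, were all lower in mutant embryos, so the filter hides part of this difference. Of 10 neural progenitor genes, 9 were higher (median 0.33). Medians were -0.23 for 10 heart genes, -0.027 for 8 endothelial genes and 0.057 for 15 housekeeping genes. The part of these cell types in the values of the silencing genes was not tested.

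**Figure D4:**
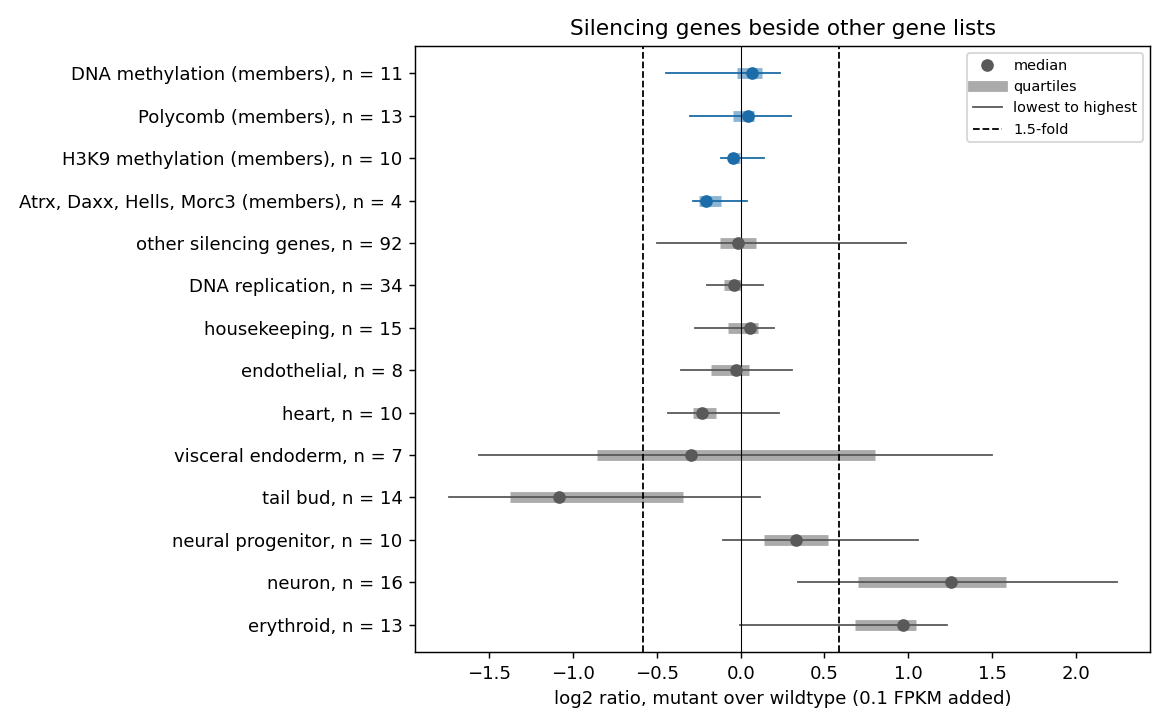
Median, quartiles and range of the log2 ratio of mutant over wildtype for the 4 classes of silencing genes (blue) and for other gene lists (grey), with n the entries of at least 1 FPKM. The 4 classes lie between the dashed 1.5-fold lines throughout, whereas the neuron and erythroid medians lie above and the tail bud median lies below them.

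Promoter sequence, which had no part in the choice of genes, was described as well. RefSeq (GRCm38.p6, the same build as MM10) gave a single start site for 26 of the 40 genes, of which 25 passed the filter on FPKM. The 250 bases upstream were called CpG-rich where the observed over expected CG count was above 0.6 and the GC content above 50%. This held for 21 of the 25, or 84.0%, beside 68.1% of all 6802 such promoters of entries past the filter and 13.4% of the 6287 promoters under it. The start site lay 15855 bases from the 5′ end of the measured entry for *Tet3*, 1720 for *Tet1* and 569 for *Phc1*. For the other genes it was at most 168 bases away. *Tet3* and *Phc1* are among those not called CpG-rich, and these stretches may not be the promoters in use. The number of CG dinucleotides ran from 6 in *Atrx* to 51 in *Tet2*, with a median of 20.

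The promoters of 3 genes, chosen for their level or ratio and therefore no sample of the rest, are given 5′ to 3′ with each CG in capitals: that of *Trim28*, the most abundant silencing gene, with 17 CG at chr7:13023902-13024151 on the plus strand, that of *Tet2*, the least abundant of those past the filter, with 51 CG at chr3:133544391-133544640 on the minus strand, and that of *Dnmt3b*, the gene with the most negative ratio, with 21 CG at chr2:153649199-153649448 on the plus strand. Of the genes below the filter, *Cbx7* also had a CpG-rich promoter, with 23 CG.
Trim28: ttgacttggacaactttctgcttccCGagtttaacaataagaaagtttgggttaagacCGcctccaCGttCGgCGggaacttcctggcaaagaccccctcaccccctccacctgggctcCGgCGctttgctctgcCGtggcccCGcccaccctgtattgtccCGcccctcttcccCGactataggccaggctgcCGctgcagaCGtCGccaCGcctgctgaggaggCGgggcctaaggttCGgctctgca
Tet2: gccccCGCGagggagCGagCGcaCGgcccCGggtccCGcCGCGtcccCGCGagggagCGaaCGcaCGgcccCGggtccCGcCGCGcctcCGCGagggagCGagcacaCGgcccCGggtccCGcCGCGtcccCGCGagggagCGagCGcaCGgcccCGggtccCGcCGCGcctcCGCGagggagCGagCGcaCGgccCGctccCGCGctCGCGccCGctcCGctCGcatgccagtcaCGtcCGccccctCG
Dnmt3b: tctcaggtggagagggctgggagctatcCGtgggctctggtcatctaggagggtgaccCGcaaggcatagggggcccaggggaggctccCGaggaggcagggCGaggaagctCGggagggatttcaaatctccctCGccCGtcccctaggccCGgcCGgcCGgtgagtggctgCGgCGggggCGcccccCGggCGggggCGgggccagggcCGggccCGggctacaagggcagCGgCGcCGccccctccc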

How the data were processed

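The authors' reads were aligned to MM10 with TopHat2 2.0.6 and Bowtie2 2.0.2, and genotypes were compared with Cuffdiff 2.0.2, per the labels' processing notes. A supplementary legend of the paper describes single-end reads of 100 bp from nondirectional libraries for its RNA-seq, so that a gene and an overlapping antisense gene cannot be told apart. Exons of 8 of the 40 genes overlap those of another gene in GENCODE M21, *Setdb1* and *Suv39h2* on the opposite strand of a coding gene among them. The deposited table gives 1 FPKM value per genotype and entry, the authors' value over 3 embryos. The paper's own copy of the table names the columns by genotype. The table also holds the authors' fold changes, test statistics, p-values and q-values, which were not used. Read counts were not recovered and the depth is unknown.

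Log2 ratios were computed for mutant over wildtype with 0.1 FPKM added to each value, which understates the change of low genes. Entries with a mean of at least 1 FPKM were counted, and a 1.5-fold ratio stood in for a call. Entry starts were counted from 1. Alternatives were other pseudocounts, filters, scalings and folds. The members, lists, pairs and rules were chosen with earlier results of these data known. Named genes were all members past 1.5-fold, the 3 at either end and the 3 most abundant of each class, members of the pairs, those under 1 FPKM, and other silencing genes past 1.5-fold. *Suz12*, *Jarid2*, *Bmi1*, *Mbd1* and *Mbd2*, outside that rule, were added so that every member is accounted for. Of these steps, only the log2 ratio and the counts past 1.5-fold were tested on simulated data. The filter was applied there, but no changed entry lay near it, so the filter itself was not tested. Python 3.11.15, numpy 2.4.6, pandas 2.3.3 and matplotlib 3.10.9 were used.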

Additional observations from a re-analysis of the deposited data

How the results depend on the processing

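No paired analysis was possible because the table holds 1 value per genotype, and for the same reason no embryo could be left out. With no spread known, a median or ratio was taken as moved when it changed by 0.1 or more on the log2 scale, a limit chosen here. The scalings shifted every log2 ratio by 0.043, -0.016 or 0.0076, so none of them could move a value by this limit. The limit is also larger than most class medians, which could change sign and still be counted as unmoved. The count of medians that stayed therefore says little about small differences. By that limit 91 of 92 alternatives for medians and their differences stayed, the exception being the difference between H3K9 and DNA methylation factors, which was -0.0080 over entries alone in their locus, where fewer genes are counted. In the same setting Polycomb minus DNA methylation turned from -0.024 to 0.029, within the limit. The number of silencing genes past the fold was the same in 19 of 20 alternatives, and 2 genes were lower at the smaller limit of 0.32. Some of these alternatives could not differ. From a count of 0, a larger fold, a higher filter or the removal of failed entries can only give 0 again. The pair of *Cbx2* and *Cbx7* moved to 0.25 with 1 FPKM added and 0.70 with 0.01 FPKM added, since *Cbx7* was below 1 FPKM. Other single genes that moved with the pseudocount were *Dnmt3l* and *Prdm16*, the latter between 0.63 and 1.04 and past 1.5-fold throughout. Leaving out the entries marked as failed, and the alternatives for pairs and for the other lists, were chosen after seeing the data.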
